A study of Drosophila melanogaster with 6 samples.

Results

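Transcripts of 8 transient receptor potential (TRP) channel genes, trp, trpl, Trpgamma, TrpA1, Trpm, Trpml, pain and pyx, were examined in the midgut of Drosophila melanogaster females. They are 8 of the 17116 genes in the count files. The genes were picked by symbol, with the counts of mated and virgin midguts already known and with trp as the gene that drew attention, so their differences between mated and virgin midguts are given as a description without p-values. A filter on low counts kept 7 of the 8, as against 8607 of all 17116 genes, and Trpml did not pass it.

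The flies were w1118, a white-eyed laboratory strain listed as wild type, and were 8 days old. There were 3 samples of mated females, taken 3 days after mating, and 3 samples of virgin females, and each sample pooled 30 guts. The question was how the intestine of a female differs after mating. Polyadenylated RNA was sequenced by strand from whole midguts, the digestive middle part of the fly gut, so fewer cells of a type and less RNA per cell cannot be told apart.

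TRP channels are cation channels that let calcium and sodium into cells. In Drosophila they were first found in the eye, where light activates a phospholipase and opens Trp and Trpl, and other members respond to heat, irritants, touch, sound or humidity, or act inside cells at lysosomes. In the midgut, TrpA1 is known from hormone-secreting enteroendocrine cells and from intestinal stem cells.

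Counts summed over genes were 16293718 to 25464204 in the mated and 15902696 to 29021297 in the virgin libraries. Levels are in CPM, counts relative to library size, with sizes scaled by TMM, which balances libraries on the bulk of their genes, and errors are SD over 3 libraries. The midgut label was checked against 9 enterocyte marker genes, all of which passed the filter; 1 was higher (LysB), 1 lower (Mal-A1) and 7 did not pass the test. Together they reached 52900 to 68900 CPM in mated and 50400 to 63000 CPM in virgin libraries. Virgin 2 stood apart in ovary transcripts. Its 11 ovary markers summed to 107 CPM, against 0.738 to 4.13 CPM in the mated and 1.39 to 1.49 CPM in the other virgin libraries. Of all 8607 genes tested with edgeR's quasi-likelihood test, 353 passed a Benjamini-Hochberg adjusted p of 0.05, 213 higher and 140 lower in mated midguts; with library size alone as the scaling, 146 were higher and 725 lower.

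The eye channel gene trp was counted in every mated and in no virgin library, whereas 6 other TRP genes were counted in all 6 libraries. The most abundant TRP transcripts per length were pain, Trpm and TrpA1, and Trpml was at 0 in every library. In the fit of all genes, 1 of the 7 tested TRP genes was called, trp, which was higher in mated midguts. This call is no support, since the same mated and virgin values drew attention to trp. It also passed the filter through the mated libraries only, and DESeq2 gave it no adjusted p. Among all tested genes 4.10% were called, 2.47% higher and 1.63% lower in mated midguts. Libraries of the groups did not overlap for 2 of the 7, trp and pyx, against 23.9% of all tested genes.

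**Figure D1:**
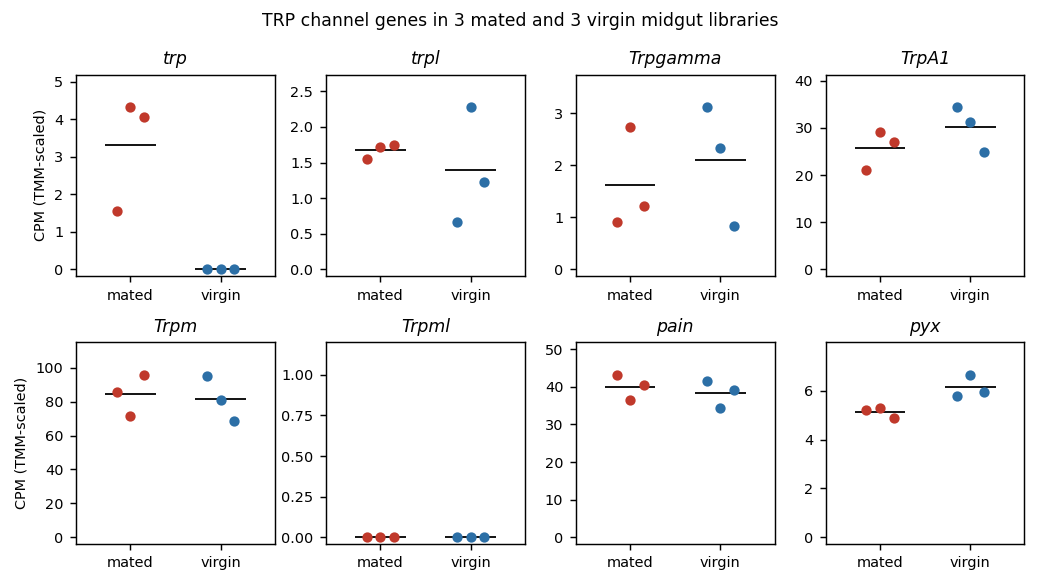
Level of each TRP channel gene (CPM, TMM-scaled) in the 3 mated libraries (red, left) and the 3 virgin libraries (blue, right), with the group mean as a line; points run from replicate 1 to 3 and each panel has its own axis from 0. Only trp separates with a wide gap, at 1.55 to 4.33 CPM in mated and 0 CPM in virgin libraries, and Trpml is at 0 throughout.

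Among the channels first described in the eye, trp encodes the main light-activated channel of photoreceptor cells. The gene (FBgn0003861) lies on chromosome 3R from 29914521 to 29920289 on the minus strand, with 2 annotated transcripts and 4.15 kb of exon. It had 34, 68 and 77 counts in mated 1, 2 and 3, against 0, 0 and 0 counts in virgin 1, 2 and 3. On the CPM scale these were 1.55, 4.33 and 4.06 in the mated libraries and 0 in each virgin library. All mated libraries were above all virgin libraries, and mated 1 was the lowest of the mated samples, with the other two close together. A count of 0 allows a level of up to 0.0996, 0.0937 and 0.167 CPM in virgin 1, 2 and 3, taking 3 counts as the limit and covering counting error only. With a floor of 3 counts over the virgin group, 0.0375 CPM, the pooled mated level of 3.16 CPM was 84.4-fold the floor. That ratio leaves out the spread between libraries and is not a lower bound. Of the summed TRP level per length, trp made up 1.28%, 3.69% and 3.14% in mated 1, 2 and 3.

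The channel gene trpl (FBgn0005614) encodes the second light-activated channel, which can assemble with Trp and with Trpgamma. It lies on 2R from 9753697 to 9765518 on the plus strand, with CG1690 on the opposite strand inside it. It had 1.55, 1.72 and 1.74 CPM in mated 1, 2 and 3, against 0.664, 2.28 and 1.23 CPM in virgin 1, 2 and 3. The mated values lay within the virgin range, and their coefficient of variation was 6.12%, against 59.1% in virgin libraries. The log2 fold change, mated over virgin, was 0.26 ± 0.64 (SE), or 0.84 ± 0.68 without virgin 2 and -0.01 ± 0.65 with library size alone. The channels Trp and Trpl work together in the eye. In these midguts virgin 2, the library that stood apart in ovary transcripts, held the most trpl counts, 73 (2.28 CPM), and none of trp. Whether trp and trpl vary together in the midgut was not tested.

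The gene Trpgamma (FBgn0032593; 2L, 16663454 to 16676701, minus strand) encodes another channel of the same subfamily, known from stretch-sensitive neurons and motor control. It had 0.913, 2.74 and 1.21 CPM in mated 1, 2 and 3, against 3.12, 2.34 and 0.836 CPM in virgin 1, 2 and 3. The groups overlapped, and each held both high and low libraries. The log2 fold change was -0.39 ± 0.65 (SE), and it ranged from -0.98 without mated 2 to 0.04 without virgin 1. These values rest on 15 to 94 counts per library.

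Of the TRPA channels, which sense heat and irritant chemicals, TrpA1 (FBgn0035934; 3L, 8894404 to 8905200, minus strand) had 21.0, 29.1 and 27.0 CPM in mated 1, 2 and 3, against 34.4, 31.3 and 24.9 CPM in virgin 1, 2 and 3. The groups overlapped, with mated 1 the lowest and virgin 1 the highest of all libraries. The log2 fold change was -0.24 ± 0.18 (SE), or -0.47 ± 0.20 with library size alone, and it stayed negative, between -0.47 and -0.10, under all 15 alternatives. Because TrpA1 is known from enteroendocrine cells, their markers are given beside it. The 14 enteroendocrine markers summed to 644 to 700 CPM in mated and 696 to 835 CPM in virgin libraries, and none was at 0 in all libraries. Of these, 1 fell, the peptide hormone gene CCHa2, and 13 did not pass. Before adjustment 5 were below 0.05 in edgeR, with NPF, AstA and Dh31 at positive and CCHa2 and IA-2 at negative log2 fold changes. DESeq2 called NPF higher and CCHa2 lower, and limma-voom called CCHa2 alone. Without virgin 1, edgeR called NPF and Dh31 higher, and with library size alone it called IA-2, CCHa2 and Tk lower. The CCHa2 gene had 50.8, 59.8 and 75.7 CPM in mated 1, 2 and 3, against 117, 83.6 and 107 CPM in virgin 1, 2 and 3 (log2 fold change -0.72 ± 0.17, edgeR adjusted p = 0.0424), and lost its call in 6 of 15 alternatives. For stem cells and their daughters, 8 progenitor markers were tested and 0 called, with 0 at an unadjusted p below 0.05 in edgeR and none called by DESeq2 or limma-voom, and they summed to 125 to 134 CPM in mated and 110 to 154 CPM in virgin libraries. The part of either cell type in the TrpA1 values was not tested.

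The gene pain (FBgn0060296; 2R, 24921505 to 24928275, minus strand) encodes Painless, a TRPA channel that larvae need to avoid noxious heat. It had 43.2, 36.5 and 40.4 CPM in mated 1, 2 and 3, against 41.5, 34.5 and 39.1 CPM in virgin 1, 2 and 3. The groups overlapped almost fully, and the coefficient of variation was 8.39% in mated and 9.27% in virgin libraries. The log2 fold change was 0.06 ± 0.14 (SE), or -0.19 ± 0.14 with library size alone, a scaling under which the median of all tested genes was -0.30 in place of -0.05.

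The gene pyx (FBgn0035113; 3L, 217932 to 223069, minus strand) encodes Pyrexia, a TRPA channel that protects flies from paralysis by heat. It had 5.21, 5.28 and 4.90 CPM in mated 1, 2 and 3, against 5.81, 6.66 and 5.96 CPM in virgin 1, 2 and 3. Every mated library was below every virgin library, on 83 to 213 counts per library. The log2 fold change was -0.26 ± 0.26 (SE), and pyx was not called.

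The TRPM channel gene Trpm (FBgn0265194; 2R, 15262808 to 15309368, minus strand), known in flies for zinc and magnesium balance, had the most counts of the TRP genes, from 1128 to 2858 per library. Its levels were 85.4, 71.8 and 95.8 CPM in mated 1, 2 and 3, against 94.9, 81.0 and 68.3 CPM in virgin 1, 2 and 3. The ranges of the groups nearly coincided. The log2 fold change was 0.05 ± 0.16 (SE), or -0.20 ± 0.15 with library size alone.

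The mucolipin gene Trpml (FBgn0262516; 3L, 19714418 to 19718328, minus strand) encodes the channel that releases calcium from lysosomes. It was at 0 counts in all 6 libraries, in the strand-specific columns and in the unstranded column alike. Over all 6 libraries this allows up to 0.0220 CPM, for counting error only and provided that the locus could be counted. Which annotation was counted is not given with the files, and whether it let reads be assigned to Trpml was not tested. Of all genes in the files, 34.9% were also at 0 in every library, among them the next gene upstream, CG42637, whereas serp, 6402 bases downstream, had 78 to 283 counts. All 12 lysosome genes passed the filter, although Gba1b was at 0 in 3 of the 6 libraries. The cathepsin gene CtsB1 had 747, 736 and 781 CPM in mated 1, 2 and 3, against 741, 775 and 731 CPM in virgin 1, 2 and 3. In edgeR 0 lysosome genes passed, and 4 were below 0.05 before adjustment. Their log2 fold changes were positive for Cln7 (0.51), Npc1a (0.43) and cathD (0.35) and negative for Mitf (-0.33). The median log2 fold change of the 12 was 0.05. DESeq2 called 1, Cln7, higher, and limma-voom called 0, while with library size alone edgeR called Mitf lower.

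Levels were set in order per length of exon, a comparison the choice of genes did not use. The mean over 6 libraries was 12.9 ± 1.06 CPM per kb for pain, 8.54 ± 1.18 for Trpm, 5.33 ± 0.905 for TrpA1 and 1.39 ± 0.157 for pyx (SD, n = 6). Each of these 4 exceeded the next in all libraries, with no overlap of their ranges. With the longest transcript as the length, Trpm was at 10.4 CPM per kb and its range of 8.57 to 12 overlapped that of pain, from 11.3 to 14.2. The lowest 3 counted genes, trp at 0.399, trpl at 0.393 and Trpgamma at 0.350 CPM per kb, overlapped each other and were not ordered. In mated libraries alone trp averaged 0.798 ± 0.369 CPM per kb (SD, n = 3), next to 0.429 ± 0.0263 for trpl.

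Set among the 10501 genes with at least 1 count and a matched length, pain stood at percentile 70.8, Trpm at 62.3 and TrpA1 at 52.8, and pyx at 35.3. The genes trp, trpl and Trpgamma stood at percentiles 25.0, 24.9 and 24.0. The summed TRP level was 29.2, 28.3 and 31.2 CPM per kb in mated 1, 2 and 3, against 32.2, 28.3 and 26.6 CPM per kb in virgin 1, 2 and 3. Together pain, Trpm and TrpA1 made up 88.3% to 92.4% of it in mated and 90.6% to 93.2% in virgin libraries. Most of the summed level thus came from the same 3 genes in every library.

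**Figure D2:**
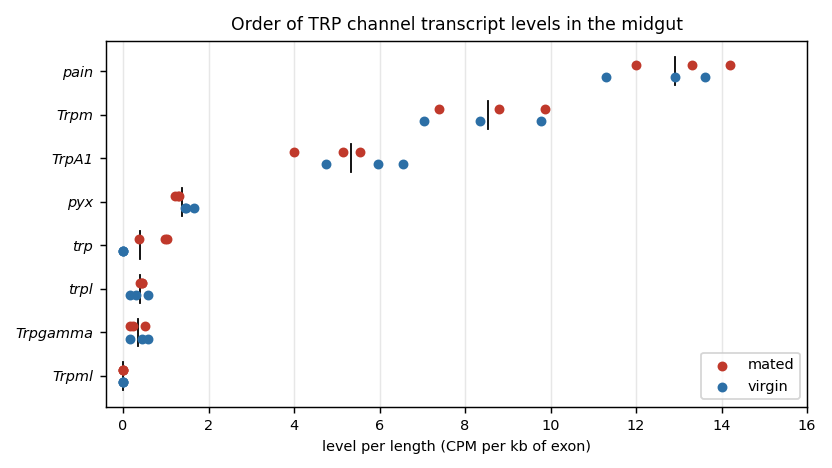
Level per kb of exon of the 8 TRP channel genes in the 3 mated (red, upper) and 3 virgin (blue, lower) libraries, with the mean of all 6 as a line, ordered by that mean. The ranges of pain, Trpm, TrpA1 and pyx do not overlap their next lower neighbour, whereas trp, trpl and Trpgamma overlap at 0 to 1.04 CPM per kb.

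Neighbouring genes were examined for trp because it lies beside abundant digestive genes. The Jonah serine protease genes Jon99Ciii, Jon99Cii and Jon99Ci lie upstream of trp, at distances of 1926, 3464 and 4936 bases, and Jon99Cii and Jon99Ci are on the same strand as trp. The nearest same-strand one, Jon99Cii, had 22700, 16000 and 19500 CPM in mated 1, 2 and 3, against 8120, 8780 and 5540 CPM in virgin 1, 2 and 3 (log2 fold change 1.38 ± 0.20, edgeR adjusted p = 0.00281). Its level was thus higher in the same libraries that held trp counts. Per 100000 Jon99Cii counts there were 6.83, 27.0 and 20.8 trp counts in mated 1, 2 and 3 and 0 in each virgin library. Virgin 2 had 280857 Jon99Cii counts and mated 2 had 251904. Among mated libraries, mated 1 had the most Jon99Cii and the least trp. Farther upstream on the same strand, at 8411 bases, alpha-Man-Ic had 20, 4 and 25 counts in mated 1, 2 and 3, against 6, 0 and 0 counts in virgin 1, 2 and 3, and did not pass the filter. The neighbour Capa, 174 bases downstream of trp on the same strand, was at 0 in all libraries. The part of the neighbouring genes in the trp counts was not tested.

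**Figure D3:**
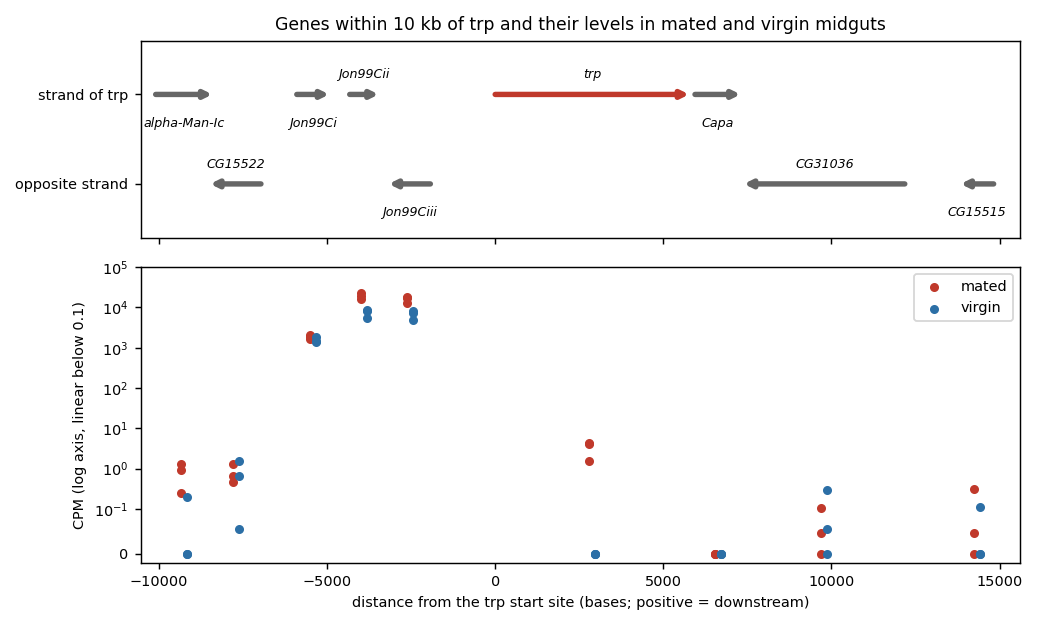
Upper panel: genes near trp by strand, drawn against distance from the trp start site, with arrows in the direction of transcription. Lower panel: CPM of each gene in mated (red, left) and virgin (blue, right) libraries on a log axis that is linear below 0.1, with Jon99Cii at 16000 to 22700 CPM in mated and 5540 to 8780 CPM in virgin libraries and trp at 0 in the virgin libraries.

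The strand of the counts was checked for each TRP gene. Summed over all libraries, opposite-strand counts were 35.4% of both strands for trp, 9.14% for pyx, and between 0% and 1.07% for the 5 others with counts. For trp there were 12, 14 and 25 opposite-strand counts in mated 1, 2 and 3, against 11, 12 and 24 in virgin 1, 2 and 3. These counts, not scaled to library size, were alike in both groups while the same-strand counts were not. In virgin libraries the only counts listed under trp were thus in the opposite-strand column, and the unstranded column held 0 in each. Whether these opposite-strand reads come from trp was not tested. The unstranded column gave trp the same 179 counts as the strand-specific one and left out the opposite-strand counts. No gene overlaps trp in the annotation used here for positions, and whether one does in the annotation behind the counts was not tested. For pain, whose end overlaps NaCP60E on the opposite strand, the unstranded column held 5008 counts and the strand-specific one 5342.

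Genes that act with trp in the eye were measured beside it. Of 22 genes of the phototransduction cascade 13 passed the filter and 0 passed the test in edgeR, DESeq2 or limma-voom, with 0 below 0.05 before adjustment in edgeR and a median log2 fold change of 0.09, beside -0.05 for all tested genes. The phospholipase C gene norpA, which acts upstream of Trp in the eye, had 15.7, 14.9 and 17.3 CPM in mated 1, 2 and 3, against 18, 20.7 and 12 CPM in virgin 1, 2 and 3. The highest of the list, the calcium sensor Cam, had 1060, 1370 and 1130 CPM in mated 1, 2 and 3, against 1070, 854 and 1320 CPM in virgin 1, 2 and 3. Of the 22, 4 genes, Gbeta76C, inaC, inaD and inaF-B, were at 0 in all libraries, inaD and inaC being partners of Trp in the photoreceptor signalling complex. The rhodopsin ninaE had 19 counts in virgin 1 and 0 in every other library.

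Markers of photoreceptor cells were near 0. None of the 10 passed the filter, 5 (Rh2, Rh3, Rh6, gl and Pph13) were at 0 in all libraries, and the 10 summed to 0.382 to 0.457 CPM in mated and 0.199 to 0.502 CPM in virgin libraries. The extracellular eye protein gene eys and the rhodopsin Rh5 were the highest of them, with at most 15 and 6 counts in a library.

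Markers of other tissues were read beside trp, and visceral muscle was the list with the most calls. Of 15 muscle markers 12 were higher in mated midguts, 0 lower and 3 did not pass. With library size alone 7 were higher, without mated 1, 2 or 3 it was 7, 5 or 10, without virgin 1, 2 or 3 it was 8, 6 or 6, and 0 were lower in each. The sum of the 15 was 3780 to 5330 CPM in mated and 2350 to 2900 CPM in virgin libraries. Among them, the muscle actin gene Act57B, had 934, 752 and 582 CPM in mated 1, 2 and 3, against 333, 232 and 264 CPM in virgin 1, 2 and 3. Markers of the Malpighian tubules, the excretory tubes that join the gut behind the midgut, summed to 29.3, 40.6 and 76.1 CPM in mated 1, 2 and 3, against 13.8, 28.3 and 8.53 CPM in virgin 1, 2 and 3. None of the 6 tubule markers was at 0 in all libraries and 5 were tested. Of those 1 was higher, the urate oxidase gene Uro, with 13.6, 22.2 and 44.8 CPM in mated 1, 2 and 3, against 2.59, 3.62 and 1.17 CPM in virgin 1, 2 and 3 (log2 fold change 3.41 ± 0.60, edgeR adjusted p = 0.0363), a call lost in 7 of 15 alternatives. For neurons, 6 of 11 markers were tested and 0 called by edgeR, DESeq2 or limma-voom, with 0 below 0.05 before adjustment in edgeR, and the 11 summed to 16.2 to 22.6 CPM in mated and 20.7 to 25.2 CPM in virgin libraries, VGlut and Rdl being at 0. Tracheal (5 tested), fat body (4) and haemocyte (1) markers had 0 calls by edgeR, DESeq2 or limma-voom, with 0, 1 and 0 below 0.05 before adjustment in edgeR. The part of these tissues in the trp counts was not tested.

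Of 8 other TRP family genes, nan, brv1, brv2 and brv3 were at 0 in all libraries and 3 passed the filter. None was called by edgeR, DESeq2 or limma-voom, 0 had an unadjusted p below 0.05 in edgeR, and the median log2 fold change was 0.10. The humidity-sensing channel gene wtrw had 4.20, 3.18 and 4.85 CPM in mated 1, 2 and 3, against 1.36, 5.28 and 0.669 CPM in virgin 1, 2 and 3. Its mated values lay between those of virgin 2, the highest, and the other virgin libraries, and its log2 fold change was 0.73 ± 0.65 (edgeR adjusted p = 0.622). Without virgin 2, the library that stood apart, it was 1.98 ± 0.50 (edgeR adjusted p = 0.0768), the highest of the alternatives, which began at 0.33. The hearing channel gene iav had 1.96, 1.15 and 2.16 CPM in mated 1, 2 and 3, against 2.03, 0.844 and 2.06 CPM in virgin 1, 2 and 3, with overlapping groups. The touch channel gene nompC had 16 counts in virgin 2 and 4 in mated 1 and was at 0 elsewhere.

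**Figure D4:**
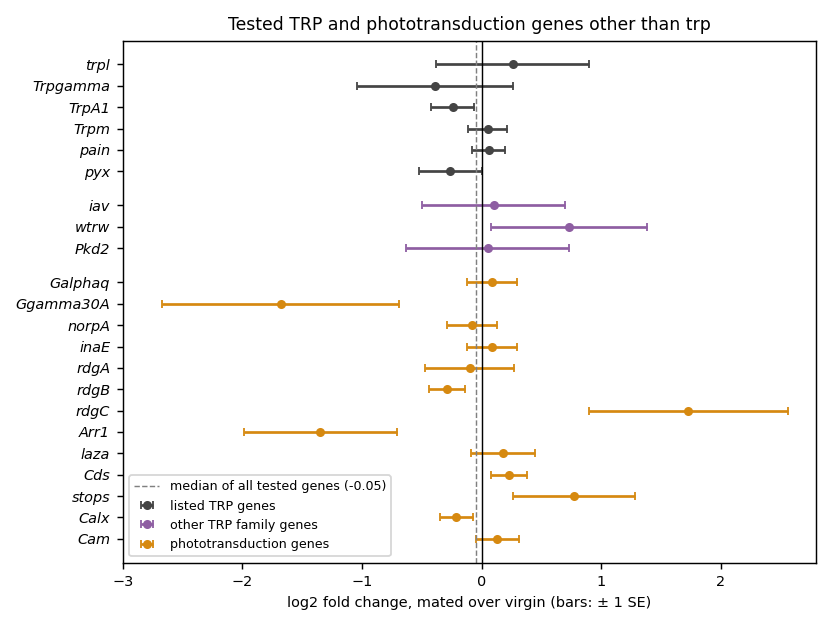
Log2 fold change, mated over virgin (points, bars ± 1 SE), of the tested TRP genes other than trp, 3 other TRP family genes and 13 phototransduction genes, with the median of all tested genes (-0.05) as a dashed line; trp, at 0 in virgin libraries, has no finite ratio and is left off. The best-counted TRP genes, pain (0.06) and Trpm (0.05), have narrow bars near 0, while genes of few counts such as trpl have wide ones. The phototransduction genes Cam (0.13) and Calx (-0.21) have more counts than either.

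Genes that handle calcium behind these channels were counted at far higher levels. All 11 genes of calcium stores and store-operated entry passed the filter and 0 passed the test in edgeR, with 2 below 0.05 before adjustment, and 1 passed in DESeq2 (Calr) and 0 in limma-voom. Their median log2 fold change was 0.20. Calr, an endoplasmic reticulum calcium-binding chaperone, had 1270, 1330 and 936 CPM in mated 1, 2 and 3, against 918, 735 and 878 CPM in virgin 1, 2 and 3 (log2 fold change 0.48 ± 0.16, edgeR adjusted p = 0.148). The calcium pump gene SERCA had 466, 497 and 409 CPM in mated 1, 2 and 3, against 438, 369 and 353 CPM in virgin 1, 2 and 3. Among 8 genes of other sensory channels, 4 were tested and none was called by edgeR, DESeq2 or limma-voom, with 0 at an unadjusted p below 0.05 in edgeR. The stretch-activated channel gene Piezo had 7.17, 4.45 and 5.38 CPM in mated 1, 2 and 3, against 5.64, 5.87 and 5.63 CPM in virgin 1, 2 and 3. The gene CG11210 (Tmem63), of a family of mechanically activated channels, had 71.6, 83.9 and 79.4 CPM in mated 1, 2 and 3, against 77.2, 50.2 and 57.0 CPM in virgin 1, 2 and 3.

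Likeness to trp was measured by Pearson's r of log2(CPM + 0.5) over the 6 libraries, as a description. Of 8606 other tested genes, 177 had an r of at least 0.9, and the 5 highest were CG6153 (r = 0.992), Arl2 (0.984), CG11912 (0.984), CG6933 (0.982) and CG7912 (0.982). They share with trp a mated 1 below the other mated libraries and 3 virgin libraries close together and lower. With trp at 0 in every virgin library, r depends mostly on the split by which trp was picked. The top genes CG6153 and Arl2 were not called (edgeR adjusted p = 0.268 and 0.299), while CG11912, CG6933 and CG7912 were called higher. Of these, CG6933 had 7.95, 9.99 and 10.4 CPM in mated 1, 2 and 3, against 1.13, 1.37 and 1.23 CPM in virgin 1, 2 and 3. For pain, the highest TRP gene per length, the 5 most alike were nec (0.992), btsz (0.989), Eip75B (0.980), CG34194 (0.972) and CG6701 (0.967), and 46 genes had an r of at least 0.9. The nuclear receptor gene Eip75B had 95.8, 66.0 and 84.3 CPM in mated 1, 2 and 3, against 80.6, 58.3 and 76.6 CPM in virgin 1, 2 and 3, with replicate 2 the lowest of each group as for pain.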

How the data were processed

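The authors deposited whole-number read counts by gene for 6 pooled midgut samples, with an unstranded column and 1 column for each strand, as STAR writes them. The tools CASAVA 1.8.4, STAR and DESeq2 1.42.0 and the build dm6 are named, without roles, per the submitters' processing notes; which annotation was counted is not given there. Since the labels name a stranded TruSeq mRNA kit, levels come from the reverse-strand column, beside which the forward-strand column held 1.86% to 2.32% of counts of both. Summary rows stayed out of library sizes; reads in no gene were 5.25% to 8.63% in mated and 4.82% to 8.93% in virgin libraries, and ambiguous reads 1.15% to 1.28%.

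Counts were fitted with edgeR 4.0.16 in R 4.3.3 (filterByExpr, TMM, robust quasi-likelihood test, group as the only term), adjusted by Benjamini-Hochberg over 8607 genes, with SE from the F statistic. The fit was tested on simulated data. Positions and exon lengths come from the Ensembl annotation in dm6 coordinates; lengths matched 16272 of 17116 symbols. Sequences are not used here. Older symbols were resolved through RefSeq synonyms. No label says whether the pools came from separate fly cultures, and the p-values then describe only how far these samples differ, which may be technical. Every within-group pair of libraries differed beyond sampling noise, with a chi-square over degrees of freedom from 23.3 upward.

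The TRP genes and all lists were chosen with earlier results of these data known. Named genes are the TRP genes and, per list, up to 4 passing genes by adjusted p or the 2 highest. The 5 most alike trp and pain are also named. The genes norpA, ninaE, nompC, Gba1b, the further enteroendocrine and lysosome genes and the neighbours were added after their values were seen. The alternatives tried were scaling by library size, by RLE or by the upper quartile, other filters, DESeq2, limma-voom 3.58.1, a replicate block, the unstranded column and each library left out.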

Additional observations from a re-analysis of the deposited data

How the results depend on the processing

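No call of trp under the alternatives is given as support, since its mated and virgin values chose it and it passed the filter through the mated libraries only. The 6 other tested TRP genes were not called under the alternatives that gave an adjusted p. DESeq2 gave no adjusted p for trp, trpl and Trpgamma, so it called none of them. Of the other named genes' values under the alternatives, 388 stayed on their side of the threshold, 13 lost a call, 1 gained one and 0 reversed. The count of all called genes was 353, and became 871 (146 higher) with library size alone and 638 (391 higher) with DESeq2; leaving out 1 library gave 169 to 308, with 169 without mated 2, 191 without mated 3 and 225 without virgin 2. Of the other listed genes 16 were called (14 higher, 2 lower), with library size alone also 16 (9 higher, 7 lower), and 7 to 14 when 1 library was left out (7 without mated 2, 8 without virgin 3, 9 without virgin 2, 10 without mated 1). The causes were not tested. With the replicate number as a block (replicate block), 290 genes were called, 260 of them among the 353, and 13 of the other listed genes. Same-numbered libraries did not deviate together (r of -0.149, -0.0678 and -0.0323 for numbers 1, 2 and 3), and no library correlated best with its own number. Depth limits trp, trpl and Trpgamma, at 0 to 94 counts per library.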

Other observations

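Besides trp, 2 further genes of the 17116 had 0 counts in every virgin and at least 10 in every mated library, and 0 genes showed the opposite pattern at the same minimum. More genes had a count in each mated library, 10237, 9725 and 9616 in mated 1, 2 and 3, than in virgin 1, 2 and 3, with 9359, 9307 and 9085. The part of that difference in the pattern was not tested. The antimicrobial peptide gene AttC had 13, 21 and 47 counts in mated 1, 2 and 3. The antisense RNA asRNA:CR43959 had 18, 16 and 16 counts in mated 1, 2 and 3. These genes were singled out after their values were seen.

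Genes that overlap the other TRP genes were also read. Within Trpm, ND-51L2 and lncRNA:CR44241 on the same strand were at 0 in all libraries, as was CG1690 within trpl. On the opposite strand, ItgaPS4 overlaps Trpm and had 2.22 ± 0.496 CPM in mated and 1.64 ± 0.884 CPM in virgin libraries. Kaz1-ORFB, which overlaps pyx on the opposite strand, had 1.27 ± 0.532 CPM in mated and 1.92 ± 0.917 CPM in virgin libraries. CG13877, also opposite pyx, had 3 counts in mated 1, 9 in virgin 1 and 0 elsewhere. ItgaPS4 and Kaz1-ORFB were not called. The part of such overlaps in the opposite-strand counts was not tested. The sodium channel gene NaCP60E, which overlaps the end of pain on the opposite strand, had 7.63 ± 2.03 CPM in mated and 13.1 ± 3.17 CPM in virgin libraries (SD, n = 3 each; edgeR adjusted p = 0.151).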
